A study of Drosophila melanogaster with 6 samples.

Results

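The genes described here carry out phototransduction in the fly eye or build and specify the photoreceptor cell. Of 35 listed genes, 24 were matched to a probe set annotated to that gene alone, out of 11982 genes with such a probe set. Genes were matched by symbol, 23 directly and CdsA through its current symbol Cds, and each gene was represented by its brightest probe set on average. Another 2 listed genes, Ggamma30A and inaF-B, sit only on probe sets that are shared with other genes. The remaining 9 (ninaE, Rh2, Rh3, Rh4, Rh5, Rh6, norpA, ninaC and ninaA) were not analysed here, so the account covers the transduction machinery rather than the main opsins. They were not matched to a probe set in the annotation used, which leaves 4720 probe sets unnamed. This does not show that the arrays lack them.

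The arrays were Affymetrix Drosophila Genome 2.0 arrays, hybridised with RNA from whole heads of mated female w1118 flies. The w1118 strain carries a mutant white gene and has unpigmented eyes, and both diets were given in this background. Virgin females collected at 0 to 3 days were mated for 48 hours with isogenic males. They then spent 7 days on a normal diet of yeast, sucrose and cornmeal, or on a high fat diet, in which coconut oil was added to that medium at 20% (w/v). The diets were held at 23 degrees C in most cases. Each RNA sample pooled 25 to 50 heads, and each diet had 3 samples, described by the submitters as biological replicates. The question was how dietary fat alters gene expression in the head.

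In fly photoreceptors, light converts rhodopsin to metarhodopsin, which activates a Gq protein and, through it, phospholipase C. Hydrolysis of the membrane lipid PIP2 opens the TRP and TRPL cation channels. Arrestins shut metarhodopsin off, while a lipid cycle that runs between the rhabdomere membrane and the endoplasmic reticulum restores PIP2. The retinal chromophore is made from dietary carotenoids in the head and is carried to the photoreceptors.

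Each of the 24 genes lay above background on all 6 arrays, among them trp, chp and inaD, which mark photoreceptors. Levels are given as log2 signal, and a difference is high fat minus normal diet. Background was between 15.2 and 21.8 signal units, or 3.93 to 4.44 on the log2 scale, and the lowest value of any of the 24 genes was 7.33. Signals of different probe sets cannot be ranked against each other, so comparisons are made within a gene. Median signal of the arrays ranged from 59.0 to 86.2, and 65.3% to 70.0% of probe sets lay above background. The 3'/5' ratio of the Act5C controls, a measure of RNA integrity, was 20.4 on high fat diet replicate 2 and 10.5 to 13.2 on the other arrays. On every array the 3' control thus had at least 10.5 times the signal of the 5' control.

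Photoreceptor genes had slightly more signal on the high fat diet, and none passed the threshold. Of the 24 genes, 22 averaged higher on the high fat diet and 2, pinta and gl, lower. The differences ran from -0.19 for pinta to 0.44 for inaE, with a median of 0.14 (1.11-fold). Over all 18769 tested probe sets the median was -0.03, with 45.7% higher on the high fat diet, and 45.1% among probe sets above background on all arrays. By limma with Benjamini-Hochberg adjustment 0 of the 24 were called, as were 0% of all probe sets, and the smallest adjusted p among the genes was 0.610. At an unadjusted p under 0.05, chp was the single gene, against 2.95% of probe sets higher and 4.91% lower, or 2.58% and 4.67% of those above background on all arrays. The 95% interval lay within a log2 difference of 1 in either direction for 23 of the 24 genes, inaE being the exception. In whole heads, a different share of photoreceptors, a different amount of RNA per photoreceptor and signal from other head cells cannot be told apart.

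Centring each array on its median, a scaling alternative, added 0.27 to every difference. It brought the median of all probe sets to 0.23 and that of the photoreceptor genes to 0.41, and pinta (0.07) and gl (0.23) then lay above 0. The photoreceptor median exceeded that of all probe sets by 0.18 as deposited, a gap that centring leaves unchanged by construction. After quantile normalization, which can change it, the gap was 0.097.

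The 3 values of the diets did not overlap in 9 genes, 8 higher and 1 lower. Across all probe sets this was the case for 8.46% in the higher direction and 9.23% in the lower. Among the 10703 probe sets above background on all arrays, as these genes are, the shares were 11.5% and 11.3%. The 8 higher genes were Rh7, Galphaq, trp, trpl, inaE, inaD, inaC and chp, and the lower gene was pinta. Each of the 4 shut-off genes and each of the 4 lipid cycle genes overlapped between the diets. After centring of the arrays 14 genes separated the diets upwards (19% of all probe sets) and 0 downwards (2.86%).

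**Figure D1:**
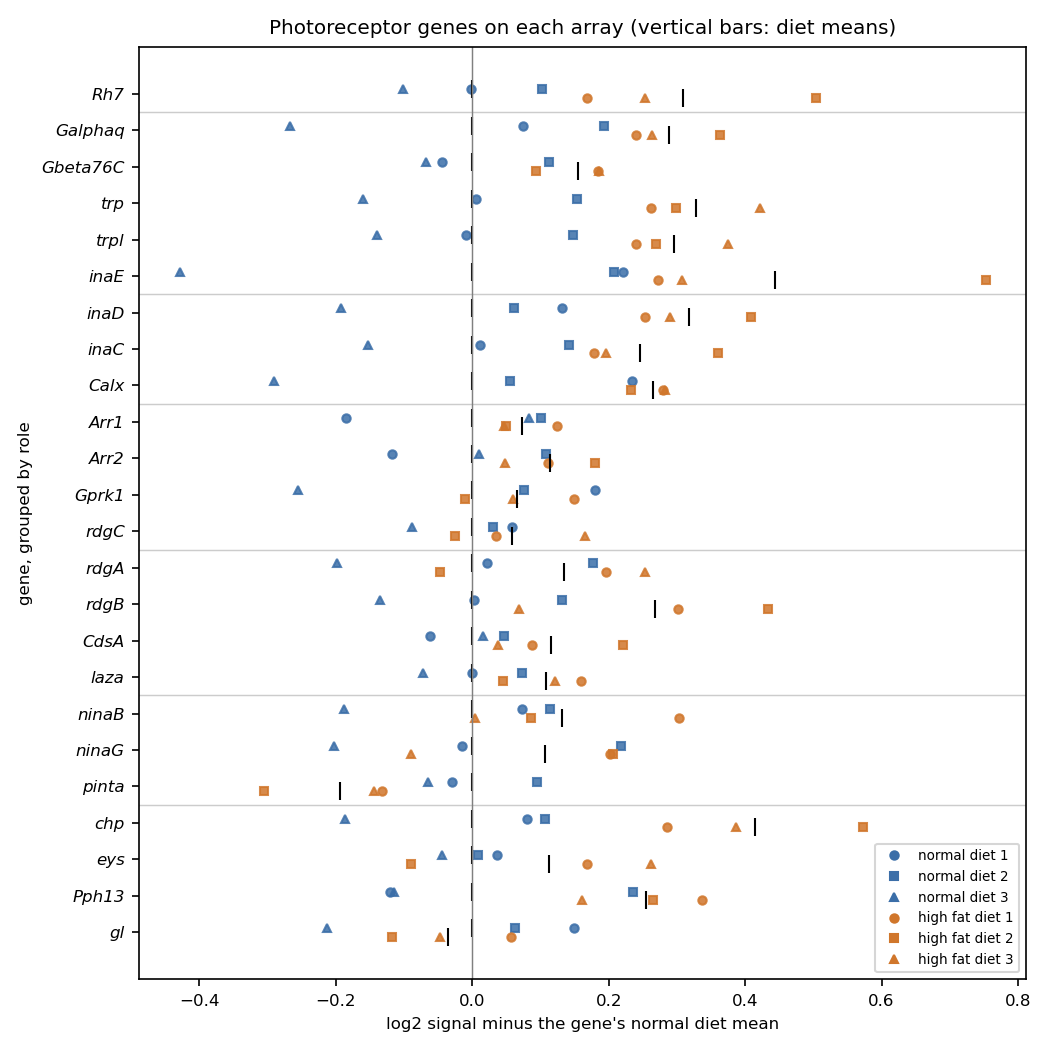
Log2 signal of each gene on each array minus that gene's normal diet mean (horizontal axis), with genes grouped by role (vertical axis), 3 normal diet arrays in blue, 3 high fat arrays in orange and diet means as vertical bars. Normal diet replicate 3, the blue triangles, was the lowest array in 18 of the 24 genes, and the orange points of 8 genes lie wholly to the right of the blue ones.

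**Figure D2:**
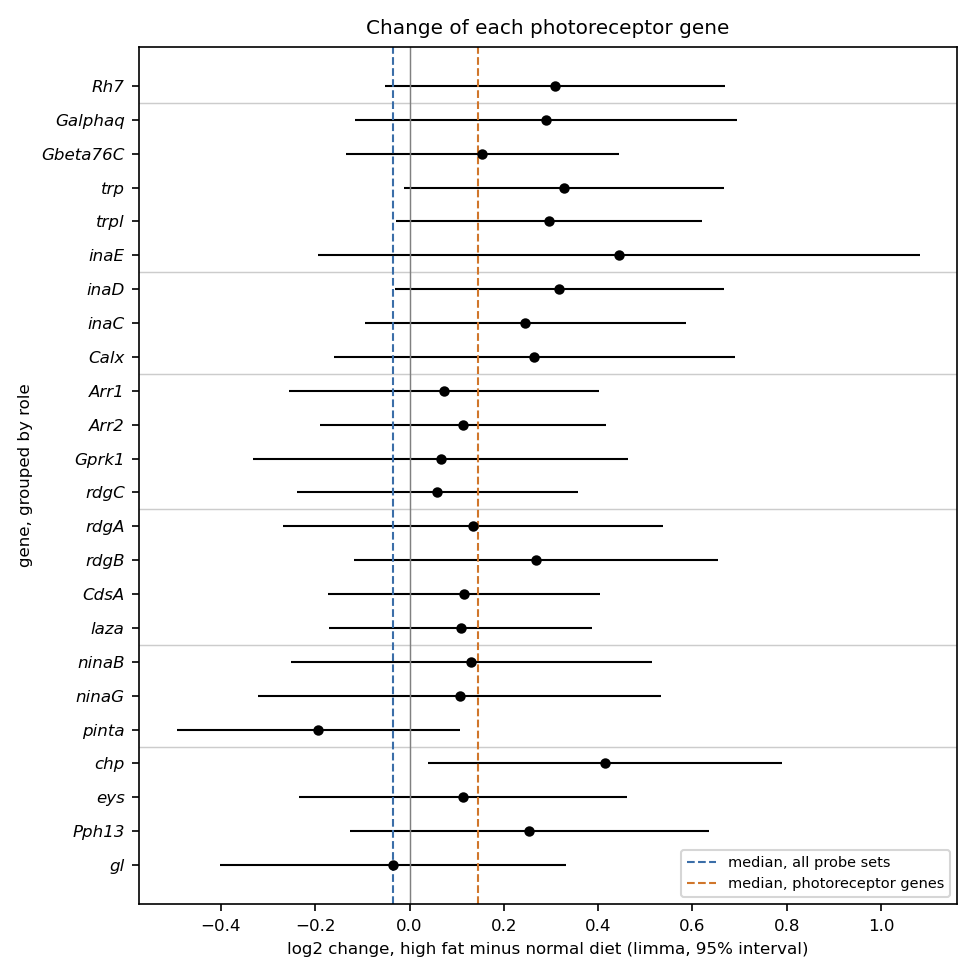
Log2 difference of each gene, high fat minus normal diet, from limma with 95% intervals, in the same order, with dashed lines at the median of all probe sets (-0.03) and of the 24 photoreceptor genes (0.14). The interval of chp lies above 0 and those of the other genes include it. Values are as deposited, with pinta and gl to the left of 0. Centring of the arrays, not drawn here, brings both above 0.

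The only opsin analysed was Rh7, which is known from brain clock neurons as well as the eye. Its log2 signal was 7.43, 7.53 and 7.33 on the normal diet and 7.60, 7.94 and 7.68 on the high fat diet. Every high fat array lay above every normal diet array, with 7.53 and 7.60 the nearest pair. The difference was 0.31 (SE 0.14, limma adjusted p = 0.610). The other, dimmer Rh7 probe set ran the opposite way, with 6.08, 5.69 and 5.79 against 5.41, 4.02 and 6.07, a difference of -0.68 (SE 0.55). On it high fat diet replicate 2, the array with the highest 3'/5' ratio, was far below the other arrays. That value, 4.02, was also just below the background of its array (4.04). The direction for Rh7 thus depends on the probe set.

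The G protein and channel genes were all higher in the mean on the high fat diet, by 0.15 to 0.44 over 5 measured genes. The channel gene trp, which gives the main light-activated calcium conductance, measured 13.16, 13.30 and 12.99 on the normal diet and 13.41, 13.45 and 13.57 on the high fat diet. Its difference was 0.33 (SE 0.13, adjusted p = 0.610; 1.25-fold, 95% interval 0.992 to 1.59). The partner channel trpl went from 13.54, 13.70 and 13.41 to 13.79, 13.82 and 13.93, a difference of 0.30 (SE 0.13, adjusted p = 0.610). In both channel genes the high fat arrays were above all normal diet arrays, and replicate 3 was the lowest of the normal diet and the highest of the high fat diet.

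Galphaq, the G protein alpha subunit that couples metarhodopsin to phospholipase C, measured 12.88, 13.001 and 12.54 on the normal diet. On the high fat diet it measured 13.05, 13.17 and 13.07 (difference 0.29, SE 0.16, adjusted p = 0.626), and the difference was 0.16 without normal diet replicate 3. Gbeta76C, the eye-specific beta subunit, differed less and overlapped between the diets, with 13.72, 13.88 and 13.70 against 13.95, 13.86 and 13.95 (0.15, SE 0.11). Both subunits were higher in the mean on the high fat diet, and their intervals, -0.12 to 0.69 and -0.14 to 0.44, overlap widely.

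inaE, a diacylglycerol lipase needed for channel activation, had the widest difference of the 24 genes and the largest standard error. It measured 10.33, 10.32 and 9.68 on the normal diet and 10.39, 10.87 and 10.42 on the high fat diet (0.44, SE 0.25, adjusted p = 0.631). The nearest arrays of the diets were at 10.33 and 10.39, while normal diet replicate 3 and high fat diet replicate 2 lay far apart. Without normal diet replicate 3 the difference was 0.23.

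The signalling complex and calcium export genes were likewise higher in the mean, by 0.25 to 0.32. inaD, the scaffold protein that holds TRP, phospholipase C and protein kinase C together, measured 11.82, 11.75 and 11.49 on the normal diet and 11.94, 12.09 and 11.98 on the high fat diet. The difference was 0.32 (SE 0.14, adjusted p = 0.610). inaC, the eye protein kinase C that acts in deactivation, measured 12.44, 12.57 and 12.27 against 12.61, 12.79 and 12.62 (0.25, SE 0.13, adjusted p = 0.622). In both genes the diets did not overlap. Calx, the sodium/calcium exchanger that clears calcium after the light response, measured 10.61, 10.43 and 10.09 against 10.66, 10.61 and 10.66, with normal diet replicate 1 level with high fat diet replicate 2 (0.26, SE 0.17). Without normal diet replicate 3 the Calx difference was 0.12.

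The shut-off genes had the lowest median of the 7 role groups, 0.07, with a range of 0.06 to 0.11 over 4 genes in the values as deposited. Arr1, an arrestin that binds metarhodopsin, measured 14.43, 14.72 and 14.70 on the normal diet and 14.74, 14.67 and 14.66 on the high fat diet (0.07, SE 0.13, 95% interval -0.26 to 0.40). Its sign turned without normal diet replicate 1 (-0.02) and after quantile normalization (-0.0041). Arr2, the major arrestin, measured 14.73, 14.95 and 14.86 against 14.96, 15.03 and 14.89 (0.11, SE 0.12, 95% interval -0.19 to 0.42). Arr2 was the brightest probe set on 5 of the 6 arrays, so its values lie at the top of the measured range. Gprk1, a rhodopsin kinase (0.07, SE 0.16), and rdgC, the rhodopsin phosphatase (0.06, SE 0.12), had intervals of -0.33 to 0.46 and -0.24 to 0.36. The sign of Gprk1 turned without normal diet replicate 3 (-0.06).

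The lipid cycle genes were each higher in the mean on the high fat diet, by 0.11 to 0.27, with overlap in all 4. rdgB, a phosphatidylinositol transfer protein, measured 11.94, 12.07 and 11.80 against 12.24, 12.37 and 12.01 (0.27, SE 0.15, adjusted p = 0.631). Only high fat diet replicate 3 fell within the normal diet range. rdgA, the diacylglycerol kinase whose loss causes retinal degeneration, measured 10.64, 10.79 and 10.42 against 10.81, 10.57 and 10.87 (0.13, SE 0.16). CdsA, which makes CDP-diacylglycerol for resynthesis of phosphatidylinositol, differed by 0.12 (SE 0.11), and laza, a lipid phosphate phosphatase that opposes rdgA, by 0.11 (SE 0.11).

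The chromophore genes had differences of either sign in the values as deposited. pinta, a retinoid-binding protein of retinal pigment cells needed for chromophore supply, was the only gene of the 24 whose high fat arrays all lay below the normal diet arrays. It measured 10.06, 10.18 and 10.02 on the normal diet and 9.95, 9.78 and 9.94 on the high fat diet (-0.19, SE 0.12, adjusted p = 0.645; 95% interval -0.49 to 0.11). Leaving out 1 array gave -0.23 to -0.14 over 6 fits, where the sign could not turn because the diets did not overlap. After centring of the arrays pinta was higher (0.07). ninaB, which cleaves carotenoids to retinal, measured 10.71, 10.75 and 10.44 against 10.94, 10.72 and 10.64 (0.13, SE 0.15). ninaG, an oxidoreductase of chromophore synthesis, differed by 0.11 (SE 0.17), with overlapping diets.

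Among genes of structure and fate, chp had the smallest p of all 24 genes. It encodes chaoptin, the adhesion protein that packs the microvilli of the rhabdomere. chp measured 13.003, 13.03 and 12.74 on the normal diet and 13.21, 13.49 and 13.31 on the high fat diet, and every high fat array was above every normal diet array. The difference was 0.41 (SE 0.15, 1.33-fold, 95% interval 1.03 to 1.73, adjusted p = 0.610). It ranged from 0.32 to 0.48 with any single array left out.

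Pph13, a homeodomain factor for rhabdomere growth and opsin expression, measured 9.001, 9.36 and 9.01 against 9.46, 9.39 and 9.28 (0.25, SE 0.15, adjusted p = 0.637). Normal diet replicate 2 lay among the high fat arrays. gl, a zinc finger factor of photoreceptor identity, measured 10.07, 9.98 and 9.71 against 9.98, 9.80 and 9.87 (-0.04, SE 0.14), and its sign depended on the arrays used and on the scaling. eys, which opens the space between rhabdomeres, differed by 0.11 (SE 0.14).

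The genes were also set against each other within an array, by shifting each array by the median deviation of the 24 genes, a scaling chosen after the values were seen. This places the middle of the 24 genes near 0 by construction (11 above and 13 below). Every difference falls by the same amount, so the order of the genes is the same as deposited. On this scale chp (0.21), trp (0.13) and trpl (0.09) had non-overlapping diets on the high side, as had 2.48% of all probe sets. pinta (-0.39) and gl (-0.24) had them on the low side, as had 20.9% of all probe sets. A planned variant, with arrays shifted by the plain median of the 24 genes, separated the diets in 2 genes upwards (2.31% of all probe sets) and 2 downwards (21.5%). Both shifts are taken from these same genes and moved the median of all probe sets to -0.24. The counts and the shares are therefore partly set by the shift, and no conclusion is drawn from setting them side by side. With the deviation shift the 4 shut-off genes all lay below 0 (-0.14 to -0.09), as did 3 of the 4 lipid cycle genes and Gbeta76C (-0.05). This only restates that their deposited differences were smaller than those of the 11 genes above 0. The smallest adjusted p of the 24 was 0.449.

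For 7 of the 24 genes more than 1 probe set was annotated, and these probe sets could differ. The 4 probe sets of rdgA were all higher in the mean on the high fat diet (0.13 to 0.33), and 2 of them separated the diets. Galphaq had differences of 0.29 and 0.35 on the 2 probe sets that separated the diets and 0.0051 on the remaining one. inaE ranged from -0.33 to 0.44 over 5 probe sets. On high fat diet replicate 2 its brightest probe set was the highest of the 6 arrays at 10.87, while 3 dimmer ones were the lowest of the 6 arrays, at 7.16, 5.68 and 5.12. That array had the highest Act5C 3'/5' ratio (20.4), and the part of RNA integrity in these values was not tested. The 3 dimmer eys probe sets, below background on some arrays, ranged from -0.60 to 1.04.

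**Figure D3:**
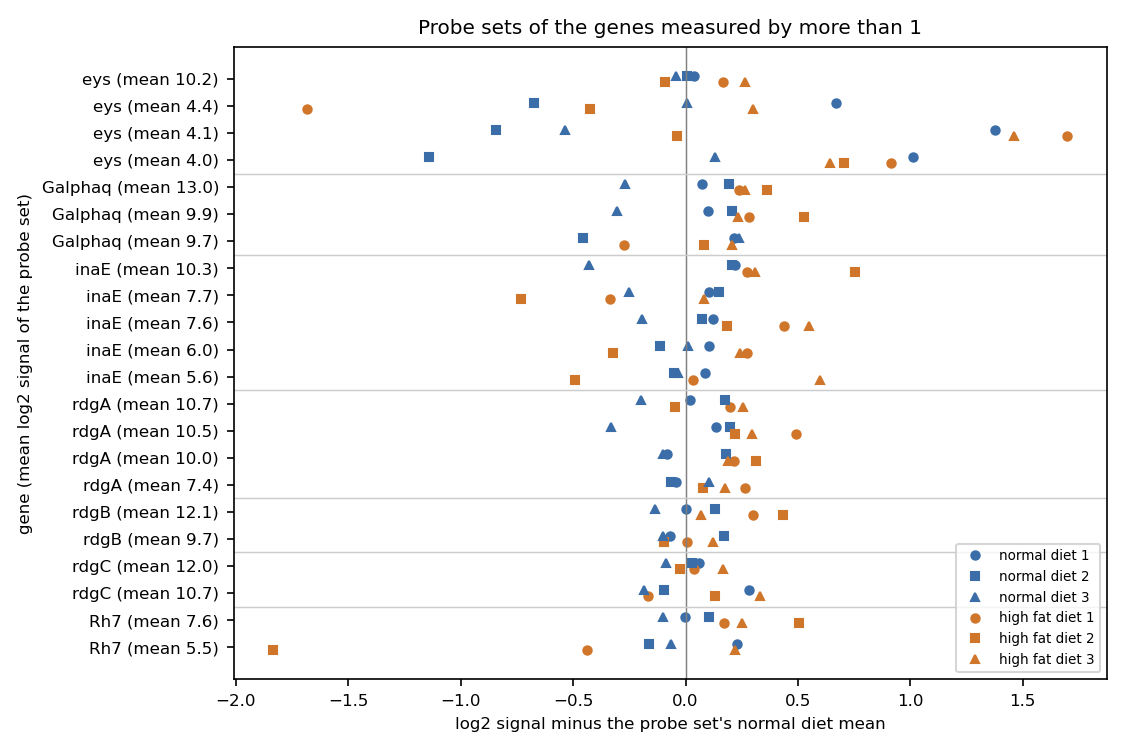
Log2 signal of every probe set of the 7 genes with more than 1, minus its normal diet mean (horizontal axis), with the gene and the mean log2 signal of the probe set on the vertical axis and 1 symbol per array. The orange squares, high fat diet replicate 2, lie to the right for the brightest inaE and Rh7 probe sets and to the left for 3 dimmer inaE probe sets and the dimmer Rh7 one.

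For these genes the arrays of the normal diet were less alike than those of the high fat diet. The median deviation of the 24 genes from their 6-array means was -0.07, 0.02 and -0.26 on the normal diet and 0.09, 0.12 and 0.08 on the high fat diet. Normal diet replicate 3 was the low array, and replicate 2 was nearest to the high fat arrays. Set against the high fat mean, the median of the 24 genes was below it by 0.19 on normal diet replicate 1, 0.056 on replicate 2 and 0.33 on replicate 3, with 21, 18 and 22 genes below it. Without normal diet replicate 3 the median difference was 0.12, and the diets did not overlap in 8 genes higher (11.9% of all probe sets) and 2 lower (12.5%). Leaving out that array also brought rdgA to 0.036, ninaB to 0.037, rdgC to 0.014 and ninaG to 0.0051, and turned Gprk1 to -0.061. Without normal diet replicate 2 the median difference was 0.22, with 14 genes higher (13.9%) and 1 lower (20.4%). Without high fat diet replicate 2, the array with the highest 3'/5' ratio, it was 0.19, with 13 higher (13.8%) and 1 lower (14.2%).

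Marker lists of neurons in general, which include photoreceptors, and of other cell types shared part of this pattern over the arrays. Of 13 measured neuron markers, all 13 were higher in the mean on the high fat diet (median 0.26), and their summed signal was 27140 to 32904 on the normal diet and 35152 to 37424 on the high fat diet. Muscle markers were higher in 6 of 8 (median 0.28, with sums of 9988 to 11840 and 13547 to 14880). Cone and pigment cell markers were higher in 5 of 5 (median 0.19, with sums of 1487 to 1887 and 1869 to 1921). Glial markers were higher in 7 of 8 (median 0.10), hemocyte markers in 5 of 6 (median 0.10) and fat body markers in 4 of 8 (median -1.93e-04) as deposited. After quantile normalization these counts were 5, 5 and 3. They include 1 glial marker (gcm2, higher as deposited) and 1 fat body marker (Fbp1, lower as deposited) that lay below background on all arrays. The diets did not overlap upwards in 8 of 13 neuron, 5 of 8 muscle, 2 of 5 cone and pigment, 1 of 8 glial, 3 of 6 hemocyte and 0 of 8 fat body markers. Over all probe sets the share was 8.46%. Downwards it was 1 muscle and 1 fat body marker (9.23% of all probe sets). Normal diet replicate 3 was the lowest array for the neuron, glia, muscle, cone and pigment, and hemocyte lists (-0.30, -0.26, -0.38, -0.21 and -0.13), as it was for the photoreceptor genes. The fat body list was lowest on normal diet replicate 1 (-0.20). With each array shifted by the neuron markers, a scaling added after the values were seen, the photoreceptor median was -0.13 with 7 genes higher and 17 lower. Since photoreceptors are neurons, this shift can also take out photoreceptor signal, and no conclusion is drawn from it. On that scale 0 genes separated the diets upwards (1.68% of all probe sets) and 5 did so downwards (29.0%).

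Ovary markers ran the opposite way. All 13 averaged lower on the high fat diet as deposited and 12 after centring, with a median of -3.86 as deposited. By limma 0 of them were called, and 1 (vas) lay below background on all arrays. Their summed signal was 5381 to 18756 on the normal diet and 3831 to 3979 on the high fat diet. osk organises germ plasm in the egg. Its log2 signal was 10.70, 8.70 and 11.05 on normal diet replicates 1, 2 and 3, against 3.76, 4.02 and 4.29 on the high fat arrays (limma adjusted p = 0.144). On high fat diet replicates 1 and 2 osk lay below background (4.36 and 4.04), so the size of its difference is uncertain. osk was highest on normal diet replicates 1 and 3, the arrays on which photoreceptor genes were lowest, and yl, nanos and bcd were below background on every high fat array. The arrays were scaled to a common mean, and the part of ovary RNA in the photoreceptor values was not tested. In a fit with normal diet replicate 2 alone against the 3 high fat arrays, where the single array is taken to vary as the others do, the photoreceptor median was 0.056 with 18 of 24 genes higher. In that fit 9 of the 24 genes were above the single normal diet array on every high fat array (25.0% of all probe sets) and 3 below it (26.5%).

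**Figure D4:**
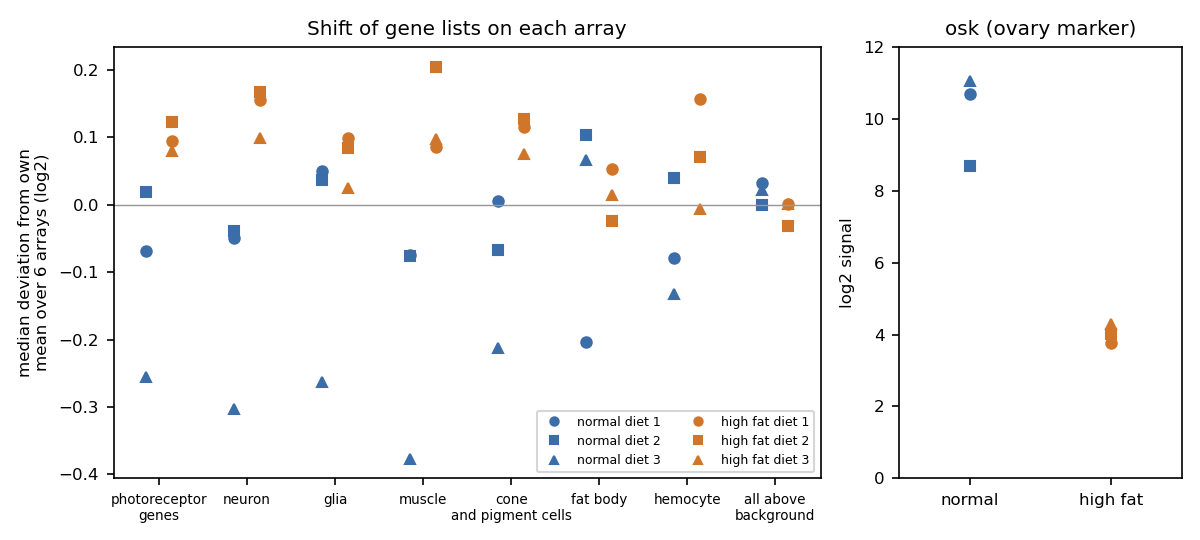
Left, the median deviation of each gene list from its genes' 6-array means (log2) on each array, and right, log2 signal of osk in both diets, with 1 symbol per array. Photoreceptor, neuron, glia, muscle, hemocyte, and cone and pigment lists share a low normal diet replicate 3, while the probe sets above background on all arrays stay between -0.03 and 0.03.

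Other eye genes, taken from lists drawn up by role, were measured in 51 cases, and limma called 0 of them in either direction. At an unadjusted p under 0.05 there were 3, all higher (prom, ss and oc), against 2.95% of all probe sets in that direction. The list of other phototransduction proteins had 6 of 8 genes higher (median 0.17). rtp, a partner of the NINAC myosin in the rhabdomere, measured 13.33, 13.42 and 13.22 against 13.54, 13.69 and 13.53 (0.26, SE 0.12, adjusted p = 0.610). Pis, the phosphatidylinositol synthase downstream of CdsA, differed by 0.21 (SE 0.11), and Pld, phospholipase D, by -0.36 (SE 0.20). The diets did not overlap for rtp and Pis and overlapped for Pld. Over the whole list 4 of 8 genes separated the diets, all higher, against 8.46% of all probe sets and 11.5% of those above background on all arrays.

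Rhabdomere structure and polarity genes were higher in 7 of 8 (median 0.24). prom, a prominin that acts with eys to keep rhabdomeres apart, measured 6.75, 6.94 and 6.75 against 7.08, 7.20 and 7.13 (0.32, SE 0.12, adjusted p = 0.610). Shrm, an actin regulator, differed by 0.31 (SE 0.14), and Moe, moesin, which links the membrane to actin, by 0.20 (SE 0.11). In these 3 genes, named for the smallest p on the list, every high fat array exceeded every normal diet array. They were the only genes of the 8 to do so. The share was 8.46% of all probe sets and 11.5% of those above background on all arrays.

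Eye determination and subtype factors were higher in 13 of 16 (median 0.19), and 6 did not overlap between the diets, all higher, against 8.46% of all probe sets and 11.5% of those above background on all arrays. ss, spineless, which sets the choice between color photoreceptor subtypes, had low signal of 5.92, 5.80 and 5.52 against 6.46, 6.32 and 6.18 (0.57, SE 0.16, adjusted p = 0.610). oc, the orthodenticle factor that regulates opsin genes, measured 8.43, 8.08 and 8.31 against 8.66, 8.65 and 8.74 (0.41, SE 0.14, adjusted p = 0.610), and ey, eyeless, differed by 0.41 (SE 0.17). These 3 factors are known from other head tissue as well.

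Retinoid and folding genes had smaller medians. Of 4 measured retinoid genes 3 were higher, with a median of 0.06 and no separation of the diets; the lower one was Cyt-b5-r (-0.04, SE 0.17), whose place on this list is uncertain. Pdh, a retinol dehydrogenase of pigment cells, differed by 0.09 (SE 0.11), santa-maria, a carotenoid uptake receptor, by 0.06 (SE 0.11), and ninaD, another such receptor, by 0.05 (SE 0.13). Rhodopsin folding and trafficking genes, mostly subunits of the endoplasmic reticulum membrane complex, were higher in 2 of 9 (median -0.03) as deposited and in 9 of 9 after centring (median 0.24). EMC10 differed by 0.13 (SE 0.12), EMC1 by -0.16 (SE 0.15) and EMC6 by -0.11 (SE 0.11). EMC6 was the only gene of the 6 further eye lists whose high fat arrays all lay below the normal diet arrays as deposited. Genes of histamine, the photoreceptor transmitter, were higher in 5 of 6 (median 0.15). Among them ine, a transporter, differed by 0.22 (SE 0.14), Hdc, which makes histamine, by 0.18 (SE 0.15), and t, the tan hydrolase that recycles it, by -0.22 (SE 0.19).

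**Figure D5:**
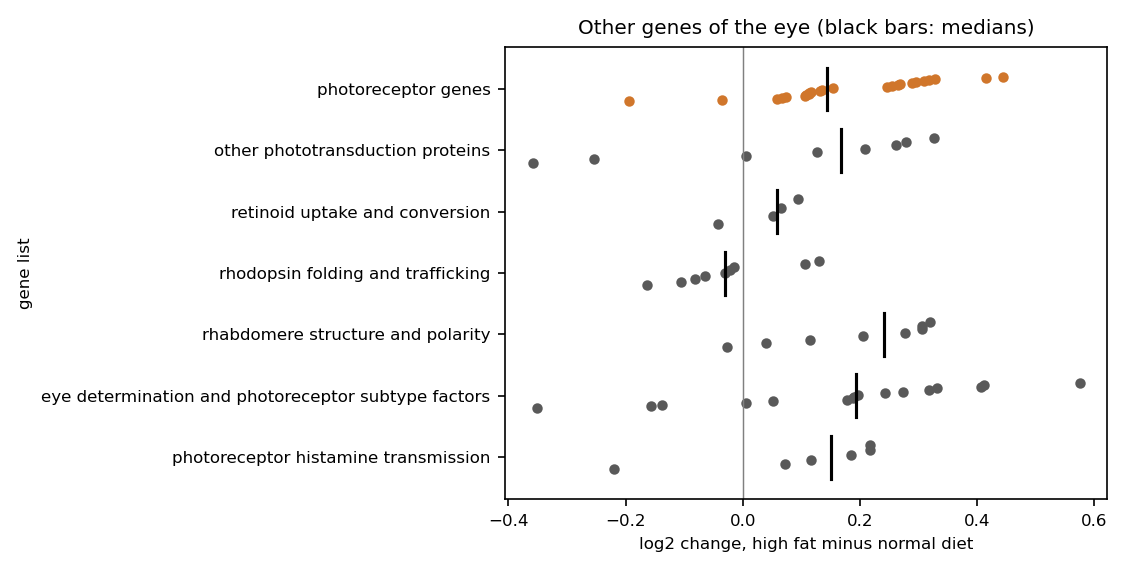
Log2 difference, high fat minus normal diet, of each gene (points) in the 24 photoreceptor genes and in 6 further eye lists, with medians as black bars. Medians run from -0.03 for rhodopsin folding and trafficking to 0.24 for rhabdomere structure and polarity in the values as deposited, and centring adds 0.27 to each.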

How the data were processed

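The authors deposited linear signal intensities, with 1 column for each array. Per the submitters' processing notes these were made in Affymetrix Expression Console; neither its version nor the summarisation method is given in the sources used here. Trimmed of 2% of probe sets at each end, the array means were nearly equal (499.6 to 499.7 signal units), which is what 1 scaling factor per array gives, and it leaves differences in RNA composition in place. From these, log2 values were computed with a floor of 1 signal unit. Without the 183 control probe sets, 18769 were fitted with limma 3.58.1 (lmFit, eBayes) in R 4.3.3, without covariates, adjusted by Benjamini-Hochberg over all of them, with calls made at an adjusted p under 0.05. Background was the 95th percentile of 50 control probe sets for proteins of other organisms. Planned comparisons of promoters and proteins were not run.

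The genes and lists were chosen with earlier results of these data known. All measured genes of the set are described, and from each further list the 3 genes with the smallest unadjusted p among those above background on all arrays. Same-numbered arrays of the diets did not deviate together (correlations of -0.07, 1.81e-04 and 0.03 over 10703 probe sets), so replicate numbers were not used to pair arrays. The alternatives were 15 planned and 3 added settings. With 3 arrays per diet, precision is limited.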

Additional observations from a re-analysis of the deposited data

How the results depend on the processing

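None of the 24 photoreceptor genes was called in any of the 18 alternatives, where the smallest adjusted p ranged from 0.239 (chp, trend and robust moderation) to 0.978. With the replicate block, which leaves every difference and so the median of 0.14 as it was by construction, there were 0 calls and a smallest adjusted p of 0.675.

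With any single array left out, the median of the photoreceptor genes was 0.12 to 0.22, and their number with non-overlapping diets 9 to 15, where 24.4% to 34.3% of all probe sets did not overlap (17.7% as deposited). The count of calls over all probe sets was 0 to 167, the latter without normal diet replicate 2. As deposited it was 0, with 26 by trend and robust moderation, 6 with dim probe sets left out, 4 with arrays shifted by the median of the photoreceptor genes or by the neuron markers, and 3 by the median deviation of the photoreceptor genes.

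The median was 0.41 with array medians centred (14 genes without overlap, 9 as deposited), and -0.13 with the shift by neuron markers (5). Shifts by the median of the photoreceptor genes (-0.060, 4 without overlap) or by their median deviation (-0.056, 5 without overlap) place it near 0 by construction. Relative to all probe sets the median was 0.18 higher under each of these 4 scalings, since a common shift leaves that gap as it is. Without the 2 normal diet arrays with the most osk signal it was 0.056.

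Single genes with a turned sign were as follows. Quantile normalization gave Arr1 -0.0041, gl 0.0033. Centring gave pinta 0.075, gl 0.23. The shift by the median of the photoreceptor genes gave Gbeta76C -0.050, Arr1 -0.13, Arr2 -0.091, Gprk1 -0.14, rdgC -0.15, rdgA -0.070, CdsA -0.089, laza -0.096, ninaB -0.073, ninaG -0.098, eys -0.091. The shift by their median deviation gave Gbeta76C -0.046, Arr1 -0.13, Arr2 -0.087, Gprk1 -0.13, rdgC -0.14, rdgA -0.067, CdsA -0.085, laza -0.093, ninaB -0.070, ninaG -0.095, eys -0.088. The shift by neuron markers gave Gbeta76C -0.12, inaC -0.026, Calx -0.0070, Arr1 -0.20, Arr2 -0.16, Gprk1 -0.21, rdgC -0.21, rdgA -0.14, rdgB -0.0031, CdsA -0.16, laza -0.16, ninaB -0.14, ninaG -0.17, eys -0.16, Pph13 -0.017. The mean of all probe sets gave Rh7 -0.19. With 1 array left out, Arr1 was -0.019 to 0.12, gl -0.14 to 0.039 and Gprk1 -0.061 to 0.16. Without the 2 normal diet arrays with the most osk signal the values were Arr1 -0.028, Gprk1 -0.0090, rdgA -0.042, ninaG -0.11. That setting and both median deviation shifts were chosen after seeing the data. The shifts and centring move every gene of an array equally by construction; for the others the cause was not tested. The 3 arrays per diet and the nearness of the dimmer eys and Rh7 probe sets to background limit these values.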
